A study of Mus musculus with 4 samples.

Results

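The Derlin family of the mouse has 3 genes, Derl1, Derl2 and Derl3, and this account follows all 3 of them among 16524 genes measured in mouse cerebellum. Members were chosen by name: every non-control probe whose RefSeq accession belongs to a Derlin gene was taken, which gave 4 of 56605 probes, 1 for Derl1, 2 for Derl2 and 1 for Derl3. Cerebella of C57BL/6 mice were taken at postnatal day 28, and their total RNA was hybridised to 4 Agilent arrays of 1 colour, from 2 control and 2 knockout (KO) samples. Per the labels, control mice were Derlin-2flox/flox, so that both of their Derl2 copies can be cut by Cre recombinase. KO mice came from crosses of Derl2flox/flox mice with mice that carry Cre under the promoter of nestin, a filament gene of neural precursors. The labels do not say which exons lie between the loxP sites, whether a sample is 1 mouse or a pool, whether the groups are littermates, or which sex was used. Cells of the cerebellum that do not descend from neural precursors, such as microglia and most cells of blood vessels, are not targets of this Cre.

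Derlins are small proteins that span the membrane of the endoplasmic reticulum (ER). They belong to the rhomboid superfamily but lack the catalytic residues of rhomboid proteases, and they take part in ER-associated degradation (ERAD), in which misfolded proteins are drawn out of the ER, ubiquitinated and passed to the proteasome. They are known to work with the ubiquitin ligase Hrd1 (gene Syvn1), its adaptor Sel1l, the ATPase p97 (gene Vcp) and HERP (gene Herpud1). Derlin genes also belong to the unfolded protein response: XBP1 and ATF6, transcription factors switched on when misfolded protein builds up in the ER, act on the promoters of ER chaperones and of ERAD genes, and Derl3 is known from secretory tissues.

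All 4 arrays lay on 1 slide, with controls and knockouts at different positions, so that position and group cannot be told apart. Of the spots that were not controls, 66.43% to 69.41% were well above background on each array, and 0 were saturated. Signals are given as log2 of the processed intensity minus the 75th percentile of the array, so that 0 is the level of that percentile. How bright a probe is depends on its own sequence as well as on its transcript, so the levels of different probes were not set against each other and the 3 paralogues were not ranked by abundance. Each Derlin probe has 1 spot per array, and all 16 spots (4 probes on 4 arrays) were well above background and free of outlier flags. With 4 arrays, the precision of every value is limited. Nothing in the labels says that the samples of a group are separate animals, so p-values measure only the spread between these samples. In whole tissue, fewer cells of a type and less RNA per cell cannot be told apart.

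KO was compared with control by limma over all 37516 probes kept, which asks what the cerebellum expresses differently when Derlin-2 is lost from the nervous system. With Benjamini-Hochberg adjustment, 0 of the 4 Derlin probes passed an adjusted p under 0.05, against 0% of all probes. At an unadjusted p under 0.05 there were 3 of the 4, against 14% of all probes, and these 3 (both of Derl2 and the 1 of Derl3) also had groups that did not overlap, against 49.3%. With an intensity trend and robust variances, 4 probes passed the adjusted threshold, both Derl2 probes among them.

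Derl2, the targeted gene, was lower in KO on both probes. The brighter probe is A_51_P498831, on which the log2 signal of the controls was 2.13 and 2.20, and that of the knockouts 0.81 and 0.70. Both knockouts lay more than 1 log2 unit below both controls. The difference was −1.41 on the log2 scale (SE 0.11, 95% interval −1.70 to −1.12; limma adjusted p 0.273). KO signal was therefore 37.6% of control, with an interval from 30.8% to 45.9%.

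The dimmer probe, A_55_P2178203, is listed for another Derl2 transcript, NM_001291146, where the brighter one is listed for NM_033562. Controls had a log2 signal of 0.44 and 0.47 here and knockouts one of −1.22 and −1.32, and the groups were again far apart. The difference was −1.73 (SE 0.10, 95% interval −2.005 to −1.45; limma adjusted p 0.273), which left 30.2% of control signal, with an interval from 24.9% to 36.7%. Spots of this probe were still 15.9 and 15.3 times their local background on the KO arrays, against 47.9 and 49.1 times on the control arrays, so a Derl2 signal was measured in both KO samples. Neither file nor label places the probes relative to the deleted part of the gene.

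The signal ratio between both Derl2 probes was not the same in the groups. The brighter minus the dimmer probe was 1.69 and 1.73 on the log2 scale for control and 2.03 and 2.02 for KO. The ratio was higher in both knockouts than in both controls, by 0.31 on the log2 scale, with SDs of 0.033 in control and 0.0035 in KO (n = 2 each). An exact permutation test of this value, two-sided, gave p = 0.333, the smallest that 2 against 2 samples allow. With the processed signal both probes thus differed by unequal amounts, but the ratio does not show which transcript did. With normexp background correction the differences were −1.41 for the brighter probe and −1.57 for the dimmer, against −1.41 and −1.73 here. The gap between the probes was then smaller, so its size depended on the background correction.

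**Figure D1:**
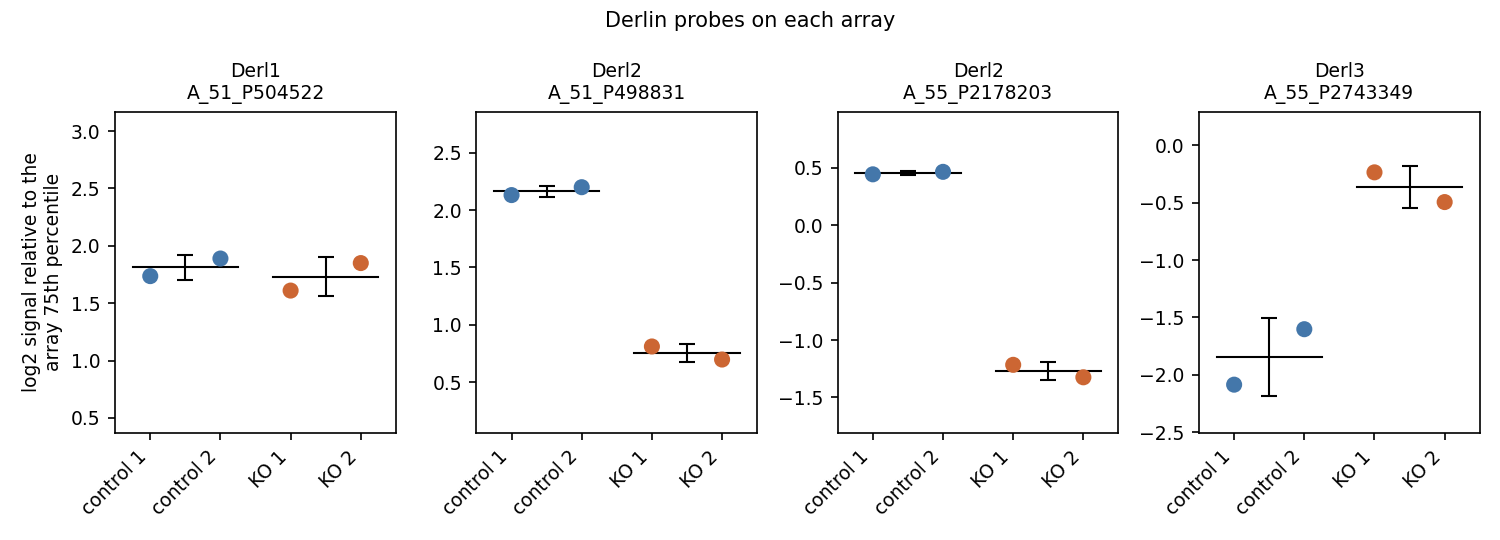
Log2 signal above or below the 75th percentile of the array (vertical axis, 1 panel per probe, each spanning the same range) on control arrays 1 and 2 (blue) and KO arrays 1 and 2 (orange). Lines are group means and error bars are the SD of 2 arrays; both Derl2 probes are lower on both KO arrays, Derl3 is higher on both, and the Derl1 groups overlap.

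Derl3 was higher in KO. Its probe, A_55_P2743349 (listed for NM_024440), gave the controls a log2 signal of −2.09 and −1.60 and the knockouts one of −0.23 and −0.49. Every KO value was above every control value, and the controls were further apart than the knockouts. The control mean was −1.84 ± 0.34 (SD, n = 2), the KO mean −0.36 ± 0.18 (SD, n = 2), and the difference 1.48 (SE 0.21, 95% interval 0.92 to 2.04; limma adjusted p 0.273). This is a 2.79-fold higher signal, with an interval from 1.89-fold to 4.12-fold. The 4 differences between a KO and a control array ran from 1.11 to 1.85 on the log2 scale. Median spot signal was 10.4 and 12.5 times the local background on the control arrays and 28.4 and 21.8 times on the KO arrays. By size of difference Derl3 stood 21st from the top among 16524 genes, each read on its brightest probe, and Derl2 stood 82nd from the bottom.

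The sequence before the start of Derl3 is shown because ER stress response elements (ERSE), the sites through which ATF6 and XBP1 are known to act, lie at such positions. It is the RefSeq promoter window of GRCm38.p6, chr10:75893148-75893397 on the + strand, and covers the 250 bases before the annotated start. An ERSE was searched on both strands as CCAAT and CCACG with any 9 bases between them. Capitals mark the fixed letters of the ERSE, which reads from CCAAT to CCACG on the opposite strand.

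Derl3: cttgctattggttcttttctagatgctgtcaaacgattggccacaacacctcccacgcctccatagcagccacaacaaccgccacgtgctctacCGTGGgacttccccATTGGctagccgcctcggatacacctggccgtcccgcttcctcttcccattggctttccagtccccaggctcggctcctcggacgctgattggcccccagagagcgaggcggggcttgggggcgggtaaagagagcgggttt

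The match spans bases 156 to 138 before the start. Over all RefSeq promoter windows of the same length, 37 of 32851 (0.113%) hold the full ERSE on either strand. The window also holds CCAAT, the left end of the element, 5 times over both strands, while 0.84% of all windows hold it 4 times or more. Derl2, which was lower in KO, has 2 such windows in the table, for its different annotated starts. One of them also holds CCAAT 5 times over both strands and the other 0 times, so this count does not set Derl3 apart from Derl2. Neither holds any of the 5 motifs searched: ERSE, ERSE-II (ATTGG, any 1 base, CCACG), both forms of the UPRE (TGACGTGG and TGACGTGA) or the ATF4 composite site (TGATGCAAT). A missing match says only that these letters are not in the window.

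The same search covered the other genes listed for XBP1 and ATF6, Derlin partners, rhomboid relatives and the PERK branch. An ERSE lies before 7 of the 18 XBP1 and ATF6 target genes that have a window (38.9%) and before 1 of 28 Derlin partners. The sites are printed for comparison with Derl3, each in its own CCAAT to CCACG direction with the fixed letters in capitals, with its place in GRCm38.p6.

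Derl3, chr10:75893242-75893260: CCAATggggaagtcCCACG
Hspa5, chr2:34772025-34772043: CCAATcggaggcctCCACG
Pdia6, chr12:17266491-17266509: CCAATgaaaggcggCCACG
Creld2, chr15:88819520-88819538: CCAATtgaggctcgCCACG
Calr, chr8:84847075-84847093: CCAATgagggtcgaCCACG
Dnajc3, chr14:118937827-118937845: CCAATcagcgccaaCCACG
Hsp90b1, nearer site, chr10:86705533-86705551: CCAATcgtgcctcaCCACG
Hsp90b1, farther site, chr10:86705638-86705656: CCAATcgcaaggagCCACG
Canx, chr11:50325800-50325818: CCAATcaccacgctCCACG
Syvn1, chr19:6046532-6046550: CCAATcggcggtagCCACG

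The 9 genes with these sites were all higher in KO with groups that did not overlap, against 13.8% of all genes, and their differences ran from 0.20 for Syvn1 to 1.48 for Derl3 on the log2 scale. None of them passed the adjusted threshold, and the lists were drawn up from genes known to respond to ER stress. Among 10 further measured genes that have an ERSE match but are in no list, 7 were higher in KO, against 36.1% of all genes. Groups were separate and higher for 3 (13.8% of all genes) and separate and lower for 2 (32.1%). The median difference of these 10 genes was 0.13, against −0.06 over all genes. A gene in no list can still be one that acts in the ER. A match describes the letters of a window and is neither a site of binding nor a cause of a difference.

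**Figure D2:**
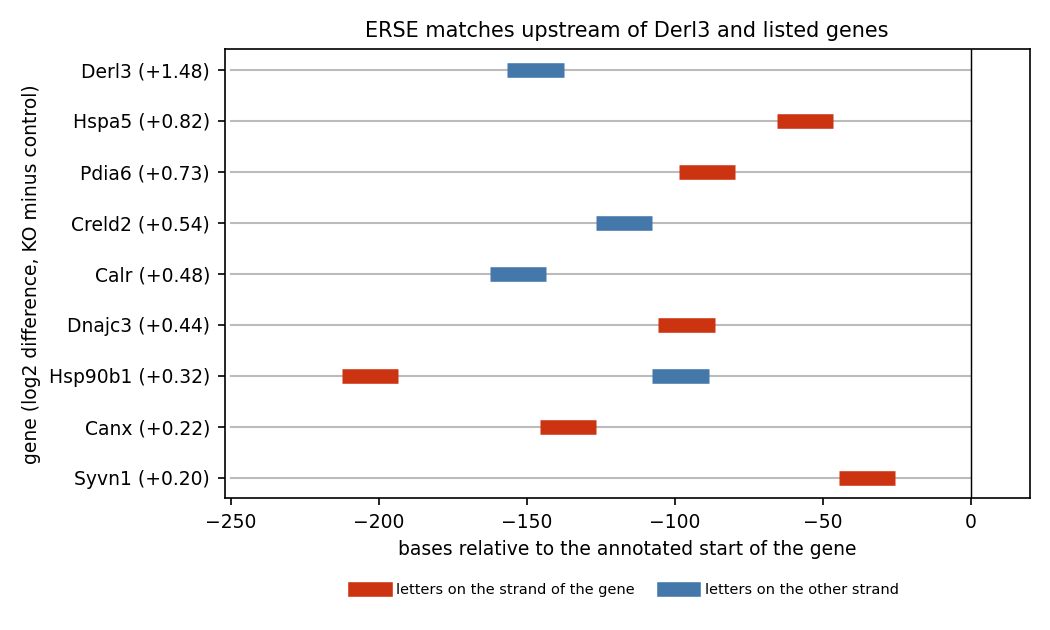
Position of ERSE matches (coloured blocks) in the 250 bases before the annotated start of Derl3 and of 8 listed genes, in bases relative to the start; red blocks read CCAAT to CCACG along the gene, blue blocks on the other strand. Genes are ordered by log2 difference, KO minus control, printed beside the name, with Derl3 (1.48) at the top and Syvn1 (0.20) at the bottom.

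Derl1, the paralogue known for its use by a herpesvirus in the removal of MHC class I proteins, did not separate the groups. Its probe, A_51_P504522, read a log2 signal of 1.74 and 1.89 for control and of 1.61 and 1.85 for KO. KO replicate 2 lay between both controls. The difference was −0.08 (SE 0.14, 95% interval −0.45 to 0.28; limma adjusted p 0.799). KO samples had 94.4% of the control signal, with an interval from 73.2% to 122%. A difference as large as those of Derl2 and Derl3 lies outside this interval, but smaller ones in either direction lie inside it. Its sign depended on the scaling and on 1 array: the difference was 0.0017 with arrays scaled to spike-in probes and 0.037 without KO replicate 1.

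Genes for proteins that work beside the Derlins at the ER membrane showed mostly small differences. Of the 35 partners reported here, all were measured, and 10 were higher in KO (36.1% of all genes) and 25 lower. Their median was −0.06, the same to 2 decimals as over all 16524 genes. After scaling to spike-in probes it was 0.021, with 21 higher and 14 lower. In 6 partners both knockouts were above both controls (13.8% of all genes), and in 14 both were below (32.1%). At an unadjusted p under 0.05, 0 were higher (3.16% of all genes) and 1 was lower (5.65%), and 0 passed the adjusted threshold.

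The partner with the smallest p was Os9, a lectin that brings misfolded glycoproteins to the Hrd1 complex. Control samples had a log2 signal of 4.32 and 4.30 and KO samples one of 4.01 and 4.04, a difference of −0.29 (SE 0.10). Rnf139, a ubiquitin ligase of the ER membrane, differed by −0.28 (SE 0.11). Edem1, which marks glycoproteins for degradation by trimming of their mannose, was higher in KO by 0.39 (SE 0.15). Herpud1, which helps to assemble the Hrd1 complex, had a log2 signal of 2.89 and 2.79 in control and of 3.62 and 3.08 in KO, a difference of 0.51 (SE 0.21). For all 4 of these genes the groups did not overlap. In both of the genes that were higher, KO replicate 1 was above KO replicate 2. Limma adjusted p-values of the 4 genes lay between 0.336 and 0.387. Without KO replicate 1 the difference was 0.24 for Herpud1 and also 0.24 for Edem1. The spot of this Herpud1 probe on control array 1 lay on a patch of raised background. The other kept probe of Herpud1 differed by 0.75. The promoter window of Herpud1 holds the ERSE-II, found in 0.0304% of all windows. The same search found a UPRE before 4 genes of the partner and target lists: Vcp (−0.09, groups separate and lower), Sec24d (0.16, groups overlapping), Ube2j1 (0.33) and Hspa5 (0.82), both of these with separate groups, higher in KO. An ATF4 composite site lies before Nupr1, a listed gene of the PERK branch, which differed by −0.14 with overlapping groups. Of all windows, 0.563% hold the UPRE as TGACGTGG, 0.35% hold it as TGACGTGA and 0.167% hold the ATF4 composite site. Groups were separate and higher in KO for 13.8% of all genes, and separate and lower for 32.1%.

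The core of the retrotranslocation complex differed little on the brightest probe of each gene. Sel1l was higher by 0.20 (SE 0.12) and Syvn1 by 0.20 (SE 0.12), both with groups that did not overlap. Vcp was lower by −0.09 (SE 0.10), also with groups that did not overlap, and Selenos, which links Derlins to p97, differed by −0.06 (SE 0.11) with overlapping groups. The other kept probes of Sel1l and Vcp differed by 0.30 and −0.15. All 4 genes were picked for their role after the values were seen.

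**Figure D3:**
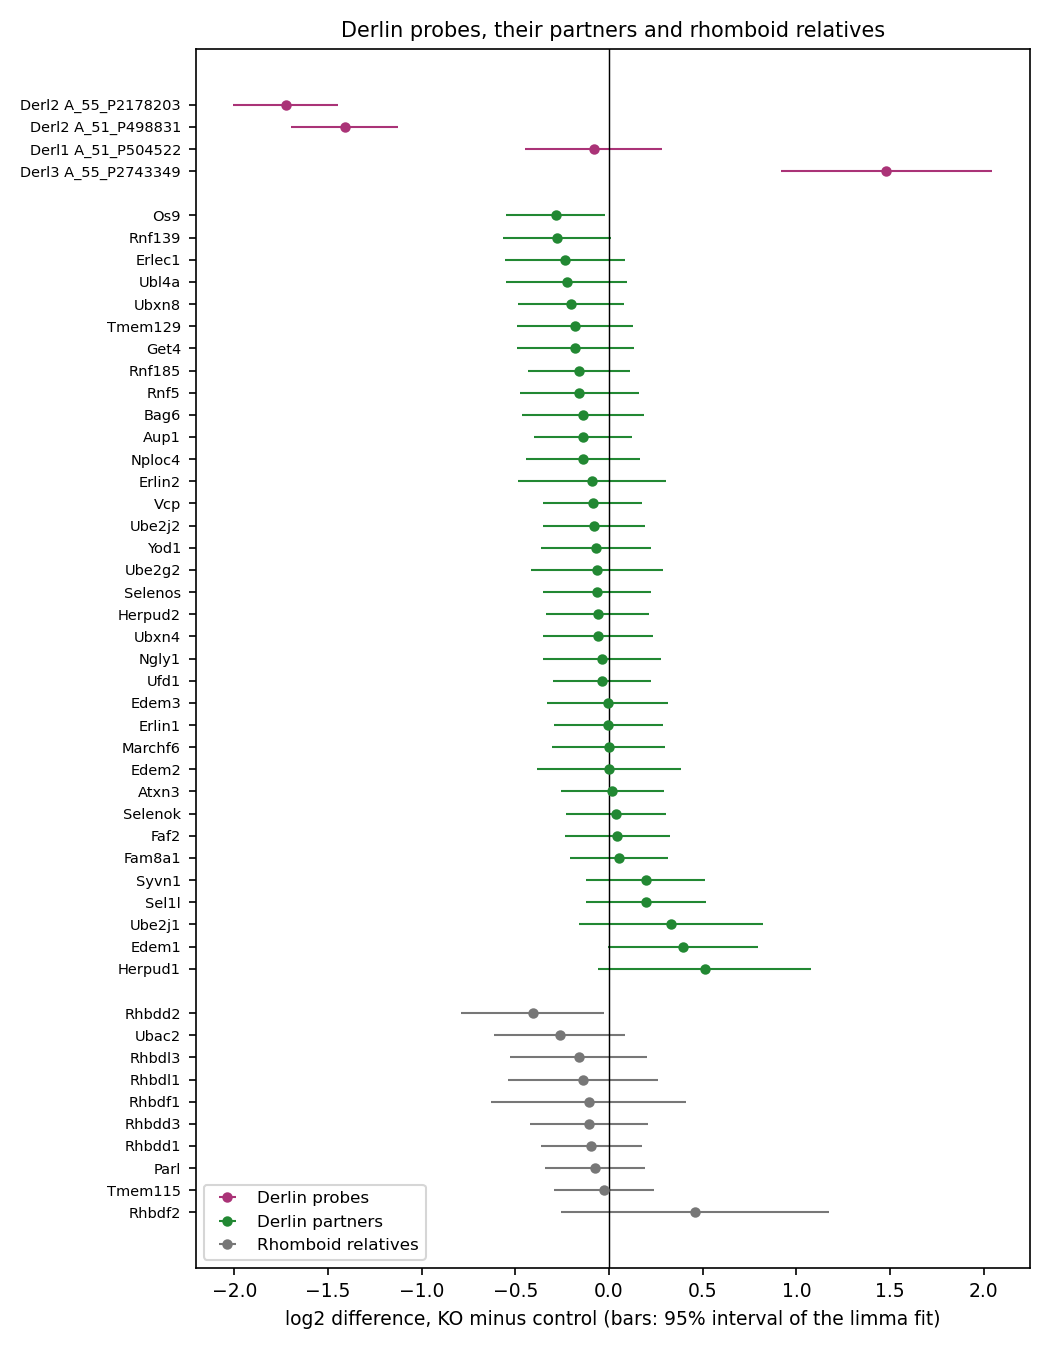
Log2 difference, KO minus control (horizontal axis), with the 95% interval of the limma fit (bars) for the 4 Derlin probes, 35 Derlin partners and 10 rhomboid relatives. The Derl2 and Derl3 intervals lie wholly on 1 side of 0. Their differences lie farther out than those of the partners, which run from −0.29 to 0.51 on the brightest probe of each gene. The interval of Herpud1, −0.06 to 1.08, overlaps that of Derl3, 0.92 to 2.04.

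Structural relatives of the Derlins, the other rhomboid proteases and pseudoproteases, were compared next. Of 11 listed, 10 had a kept probe; 1 was higher in KO (36.1% of all genes) and 9 were lower, with a median of −0.11 against −0.06 over all genes. Rhbdd2 was lower by −0.41 on the log2 scale (SE 0.14; limma adjusted p 0.342), and it was the 1 relative of 10 that was lower at an unadjusted p under 0.05, against 5.65% of all genes. Ubac2, a pseudoprotease of the ER, differed by −0.26 (SE 0.13) and Rhbdl3 by −0.16 (SE 0.14). Rhbdf2 (iRhom2), which guides the sheddase ADAM17 out of the ER, was the 1 relative that was higher, by 0.46 (SE 0.27), and by 0.11 without control replicate 1. Its control values, −1.99 and −1.29, were farther apart than the nearer control was from the knockouts, at −1.28 and −1.08.

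Derl3 was then set beside the other listed targets of XBP1 and ATF6. Of 21 such genes, all measured, 19 were higher in KO, against 36.1% of all genes, and 14 were higher with groups that did not overlap, against 13.8%. The median difference was 0.32 on the log2 scale. All lists here were chosen with earlier results of these data known, so their contrasts with all genes are a description only. At an unadjusted p under 0.05, 6 were higher (3.16% of all genes) and 0 lower (5.65%), and 0 passed the adjusted threshold. The differences of the list ran from −0.12 to 1.03, so that of Derl3, at 1.48, lay above every gene of the list.

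Xbp1 itself had a log2 signal of 4.82 and 4.78 in control and of 5.58 and 5.41 in KO, a difference of 0.70 (SE 0.11). Hspa5, which encodes the chaperone BiP, was higher by 0.82 (SE 0.16), and Pdia6, a protein disulfide isomerase, by 0.73 (SE 0.15). Sdf2l1, a partner of BiP, showed the largest difference of the list: −0.62 and −0.18 in control and 0.93 and 0.34 in KO, which is 1.03 apart on the log2 scale (SE 0.27). Limma adjusted p-values of these 4 genes lay between 0.273 and 0.286. Some other members of the list showed almost no difference on their brightest probe. Dnajb9, a co-chaperone of BiP, differed by −0.004 (SE 0.11) on that probe and by 0.157 on its other kept probe. Sec23b, a coat protein of vesicles that leave the ER, differed by 0.002 (SE 0.11). Both genes were picked after the values were seen.

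The order of the arrays was also compared. Derl3 was lowest in control replicate 1, then control replicate 2, then KO replicate 2, and highest in KO replicate 1. Of the 21 target genes, 9 had this exact order, against 3.82% of all genes, and 19 were higher in KO replicate 1 than in KO replicate 2. Only genes with both knockouts above both controls can have this order. These were 14 of the 21 target genes and 2280 of all genes, and 632 of the 2280 had the order. The median of the list over the control mean was 0.39 in KO replicate 1 and 0.19 in KO replicate 2. For Derl3, these values were 1.61 and 1.35. Without KO replicate 1 the median difference of the list was 0.19 and that of Derl3 was 1.35.

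**Figure D4:**
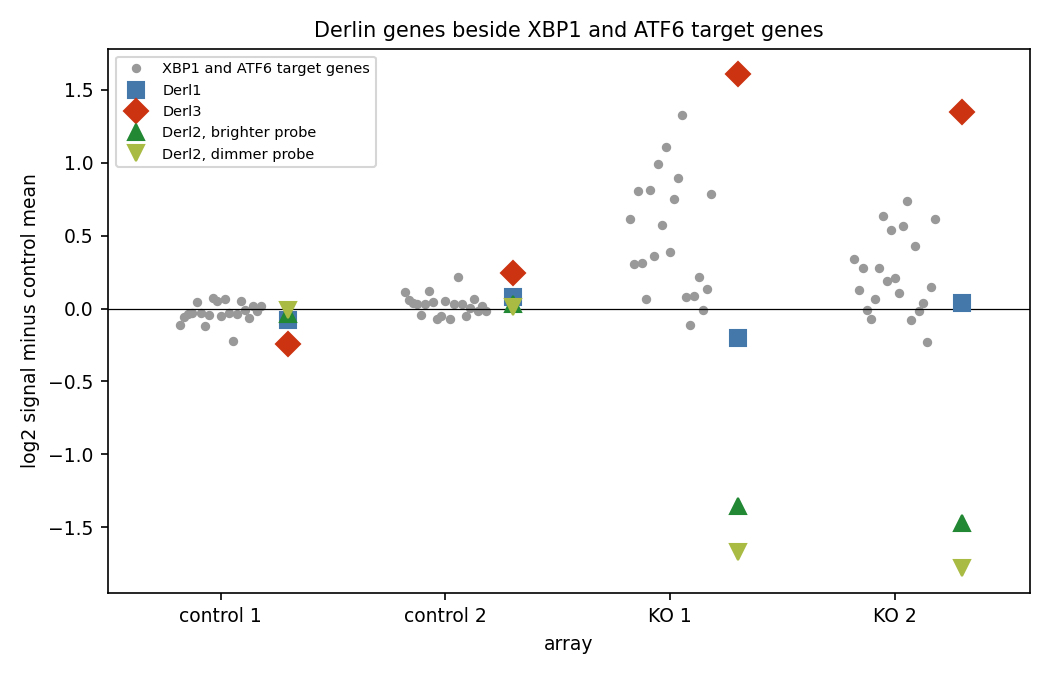
Log2 signal minus the control mean of the same probe (vertical axis) on each array for 21 XBP1 and ATF6 target genes (grey dots), Derl1, Derl3 and both Derl2 probes. Derl3 lies above every grey dot on both KO arrays, at 1.61 and 1.35, and most target genes are higher on KO array 1 than on KO array 2.

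Genes of the PERK and ATF4 branch, which answers ER stress by slowing translation, formed a more mixed list. Of 16 genes, 12 were higher in KO (36.1% of all genes), 7 were higher with separate groups (13.8%) and 2 lower with separate groups (32.1%), with a median of 0.25. Trib3, a pseudokinase induced by ATF4 and CHOP, had a log2 signal of −1.18 and −0.14 in control and of 0.95 and 0.56 in KO, a difference of 1.42 (SE 0.39). Chac1, which breaks down glutathione, differed by 1.24 (SE 0.43), with controls as far apart as 0.58 and 1.80. Without control replicate 1 the difference was 0.63 for Chac1 and 0.90 for Trib3. The transcription factor Atf3 was higher by 1.07 (SE 0.28) and Shmt2, a mitochondrial enzyme of serine metabolism, by 0.33 (SE 0.15); without KO replicate 1 these were 0.69 and 0.18. The limma adjusted p-values of these 4 genes lay between 0.287 and 0.420.

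The genes beside each Derlin gene on its chromosome were read as a check for differences that extend past it. Over 12 such genes, 2 on either side of each, differences ran from −0.60 to 0.34. Next to Derl2, C1qbp differed by −0.23 (SE 0.11), Dhx33 by −0.0003 (SE 0.11), Mis12 by 0.20 (SE 0.17) and 6330403K07Rik by −0.06 (SE 0.12). None was near the size of Derl2. Next to Derl3, Gstt2, a glutathione transferase, was lower by −0.60 (SE 0.24), or by −0.31 without control replicate 1, while Mif differed by −0.19 (SE 0.13), Smarcb1 by −0.04 (SE 0.13) and Mmp11 by 0.03 (SE 0.19). Next to Derl1, Tbc1d31 was higher by 0.34 (SE 0.10), Zhx2 by 0.12 (SE 0.12), and Gm35771 and 9130401M01Rik differed by −0.10 (SE 0.20) and −0.14 (SE 0.14). Limma adjusted p-values of the 12 genes lay between 0.307 and 0.999.

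For each Derlin gene, the 3 genes most like it over the 4 arrays were found by the root mean square difference of values centred on each gene's own mean, among 16523 other genes. Those nearest to Derl3 were Gm1141, Trib3 and Ccdc188, at 0.20, 0.21 and 0.21 on the log2 scale. Gm1141 and Ccdc188 were well above background on 0 of 2 control arrays and on 2 of 2 KO arrays, so they were kept only through the group where they are high. Their differences, 1.20 and 1.57, were 0.24 and 0.18 with normexp background correction. Those nearest to Derl2 were Trhr, Mme and Cfap52, at 0.096, 0.11 and 0.14. With normexp the differences of Trhr and Mme shrank from −1.47 and −1.22 to −0.58 and −0.39. Those nearest to Derl1 were Usp25, Ppp1r14b and Faap20, at 0.0070, 0.0079 and 0.0087. With 4 arrays this is a description, and a profile as flat as that of Derl1 has many near neighbours.

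Markers were read to check the tissue and the cells that could carry Derl3. All 10 granule cell and all 10 Purkinje cell markers were measured, with median differences of −0.03 and −0.06. The Purkinje cell marker with the largest difference, Car8, differed by −1.16 (SE 0.98). Its log2 signal was 3.99 and 3.13 in control and 1.02 and 3.78 in KO. Car8 was picked after the values were seen. Choroid plexus markers were high on 1 array: the summed signal of 11 markers was 145 times the level of the 75th percentile in control replicate 2, against 7.86 in control replicate 1 and 8.22 and 8.24 in the knockouts. Derl3 was the higher of both controls on that array, and without control replicate 2 its difference was 1.72. Without control replicate 1 it was 1.24. Plasma cells and B cells, known for high Derl3, were read on 10 of 12 listed markers; Ighm and Igkc were not measured here. Of these 10, 5 had a kept probe, Mzb1 and Pou2af1 were well above background on 1 and 2 of the 4 arrays, and Cd79a, Ms4a1 and Tnfrsf17 on 0. The summed signal of the 5 kept, relative to the 75th percentile, was 0.569 to 0.655 in control and 0.482 to 0.524 in KO. Oligodendrocyte markers had a median difference of −0.32, with 11 of 12 lower, and microglia markers one of −0.21, with 12 of 12 lower. Over all 16524 genes the median was −0.06, and 10557 were lower. The part of these cells in the Derlin values was not tested.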

How the data were processed

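Per the file headers, spots were read by the authors with Agilent Feature Extraction 12.1.1.1 (10.7.1.1 per the submitters' processing notes). The processed signal in the deposited files is a linear intensity, corrected for background and spatial trend on each array but with no scaling across arrays. A table of log2 values for the series was also deposited, with no statement of scale; between arrays its values differed from log2 processed signal by a constant, within 0.01 for 100% of 22071 bright probes, and that constant was close to the shift of the 75th percentile. Probes are centred on an unstated value. No genome build is named.

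Here, the spots of each probe were averaged as log2 processed signal, leaving out control spots and outlier flags, and the array's 75th percentile (9.496 to 9.636) was subtracted. Probes well above background on both arrays of a group were kept, 37516 in all. RefSeq accessions were named through a RefSeq table of GRCm38.p6 (32994 of 35886 matched); of 180 listed genes, 168 had a kept probe. KO and control were compared with limma 3.58.1 in R 4.3.3 (lmFit, eBayes, 4.35 degrees of freedom, no covariates), with Benjamini-Hochberg adjustment over all kept probes. Where several probes read a gene, the brightest stood for it in lists. Promoter windows are those of RefSeq, 250 bases before each start, for Derl2 and Derl3; the table lists none for Derl1. The fit was tested on simulated data for 37516 probes, of which 200 were changed, with noise drawn independently for each probe. The adjusted threshold was passed by 0% of probes with a simulated log2 change of 1, by 68% with a change of 2 and by 90% with a change of 3. Of 37316 probes with no change, 12 passed it and 5.34% had an unadjusted p under 0.05. These rates depend on how many probes change, so they need not hold for the real arrays.

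Named beside the Derlins were the 4 genes with the smallest p of each pathway list, the 2 measured genes on either side of each Derlin gene and the 3 with the most similar profile; other genes are said to be picked afterwards, or are listed with an ERSE. The members, lists and motifs were chosen with earlier results of these data known, and 1 gene of the partner list is not reported here, for a reason unrelated to its values. Alternatives were other scalings, normexp background correction with an offset of 50, the deposited log2 values, other filters, a variance trend, the replicate number as a block, and each array left out.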

Additional observations from a re-analysis of the deposited data

How the results depend on the processing

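Both Derl2 probes and Derl3 kept their direction under all 15 alternatives: −1.47 to −1.33 for the brighter Derl2 probe, −1.78 to −1.57 for the dimmer and 1.21 to 1.72 for Derl3. Over these, the limma adjusted p ran from 0.0166 to 0.554 for both Derl2 probes and from 0.0998 to 0.554 for Derl3. Under the variance trend both Derl2 probes passed the threshold (−1.41 and −1.73), and under normexp the dimmer one did (−1.57). Derl1 was 0.0017 with spike-in scaling, and with an array left out it ran from −0.20 to 0.037.

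The count of called probes, 0, was 1 with spots on patches of raised background left out and with each of the other scalings (quantile, spike-in, median of bright probes), 2 under normexp and 4 under the variance trend. With an array left out it ran from 0 to 98, the most without control replicate 2; the lone array of a group is taken to vary as the others do. The partner median was −0.016 after quantile normalization and 0.021 with spike-in scaling, and ran from −0.10 to −0.012 with an array left out. The median of the XBP1 and ATF6 targets ran from 0.19 (without KO replicate 1) to 0.39 with an array left out.

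Of 535 values of 36 other named genes, 511 kept their direction and 24, of 8 genes near 0, turned. Dhx33 was 0.046 after quantile normalization, 0.084 with spike-in scaling, 0.037 under normexp, 0.0040 in the deposited values, 0.0030 with outlier spots kept and 0.0012 without patch spots. Smarcb1 was 0.013 after quantile normalization and 0.049 with spike-in scaling, where 6330403K07Rik was 0.025, Usp25 0.0071 and Faap20 0.010. With an array left out Dhx33 ran from −0.080 to 0.079, Smarcb1 from −0.17 to 0.10, 6330403K07Rik from −0.13 to 0.011, Mmp11 from −0.18 to 0.25, Usp25 from −0.19 to 0.036, Faap20 from −0.18 to 0.036, Ppp1r14b from −0.20 to 0.021 and Gm35771 from −0.37 to 0.17. The cause was not tested.

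With the replicate number as a block, the Derlin differences were the same (−0.08, −1.41, −1.73 and 1.48), and 0 probes were called. The correlation of same-numbered deviations was 0.124 over 37516 probes, and nothing in the labels says that a number marks a shared litter or day. Spike-in scaling moved the median of all probes most, from −0.03 to 0.06.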
